A study of Mus musculus with 696 samples.

Results

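Oxtr, the oxytocin receptor, and Avpr1a, the vasopressin receptor of type 1a, were followed through the single-cell transcriptomes of Lrig1 stem cell progeny in mouse tail skin. They are 2 of the 15652 genes of the count table, and were chosen by name after earlier results of these data had shown them in cells with high Scd1, the gene of a fatty acid desaturase of the sebaceous gland. Their presence in such cells and their course over the time points are therefore given as a description, without a test. The detection of other gene groups in receptor-positive cells is set beside it. The lists of these groups were also chosen with earlier results of these data known, so this detection is a description too.

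The study asked how the progeny of Lrig1 stem cells, which sit at the junctional zone of the hair follicle, behave through a pair of overlapping wounds. The cells were sorted as tdTomato-positive epidermal cells and their RNA was read by Smart-seq2, a plate method that covers full transcripts but attaches no molecular identifiers. All groups came from female mice of a CBA C57BL/6 mixed strain with the alleles Lrig1-EGFP-ires-CreERT2 and Rosa26-fl/STOP/fl-tdTomato, and all had hydroxytamoxifen applied to the tail before wounding, the unwounded mice included. The Cre is driven by Lrig1, so that only cells descended from those expressing it at labelling carry tdTomato. The 4 groups were unwounded skin (0w, 179 cells), 1 week after a full-thickness wound (1w pw1, 168 cells), 8 weeks after it (8w pw1, 172 cells) and 1 week after the second, overlapping wound (1w pw2, labelled as week 9, 177 cells). The study labelled adult mice 1 week before 0w, so that the mice of 8w pw1 and 1w pw2 were older than those of 0w. The 4 groups hold no unwounded mice of that later age, so age and time point cannot be told apart. The sorted zone held the wound bed together with follicles away from it. The study states 2 independent experiments of 4 biological replicates each, and the labels give every time point 2 plates, numbered replicate 1 and 2, without naming animals. At 0w, 8w pw1 and 1w pw2 the titles also carry a letter common to both plates (RepC, RepB and RepF), which the labels do not explain. Each plate belongs to a single time point, so that plate and time point cannot be told apart, and plates are the unit of the comparisons between time points, while values over cells pooled from plates are descriptions.

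Oxtr and Avpr1a are related receptors of the cell membrane that couple mainly to G proteins of the Gq and G11 class. On binding oxytocin or vasopressin, small peptides released from the hypothalamus and pituitary, they activate phospholipase C beta, which raises calcium in the cytosol and activates protein kinase C. Oxtr is best known for contraction of the uterus and of the myoepithelium of the mammary gland, and Avpr1a for contraction of blood vessels and for actions in liver and brain. Sebocytes are the lipid-filled cells of the sebaceous gland, which arise from proliferating cells at the rim of the gland, turn on Pparg and lipid synthesis and finally burst to release sebum.

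Plates held 79 to 91 cells and 12293096 to 19760764 estimated counts, and the median cell of a plate held 64979 to 256587 counts. The number of cells and their depth limit what can be seen of a gene that is counted in few of them. In a sum over a plate, fewer cells of a type and less RNA per cell cannot be told apart, and the shares of positive cells are therefore given beside the levels.

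On the GRCm38 assembly (GENCODE annotation), Oxtr (ENSMUSG00000049112.9) lies at chr6:112473683-112489943 on the minus strand and is protein coding. Avpr1a (ENSMUSG00000020123.6) is protein coding and lies at chr10:122448499-122453452 on the plus strand, inside the span of an antisense gene with which it shares 0 exonic bases. Both genes move together in the cells described here, and the sequence before their first exon is shown for that reason. It is taken from RefSeq (GRCm38.p6), on the strand of the gene, from chr6:112489944-112490075 (minus) for Oxtr and from chr10:122448249-122448498 (plus) for Avpr1a, with capitals for any match to 5 short motifs searched on both strands: AGGTCA, the core element bound by nuclear receptors such as PPAR gamma, CACGTG, known as an E-box, TATAAA, known as the TATA box, CCAAT, an element common before gene starts, and GGGCGG, known as a GC box.
Oxtr: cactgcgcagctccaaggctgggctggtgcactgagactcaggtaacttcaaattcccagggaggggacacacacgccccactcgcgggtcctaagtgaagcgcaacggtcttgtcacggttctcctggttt
Avpr1a: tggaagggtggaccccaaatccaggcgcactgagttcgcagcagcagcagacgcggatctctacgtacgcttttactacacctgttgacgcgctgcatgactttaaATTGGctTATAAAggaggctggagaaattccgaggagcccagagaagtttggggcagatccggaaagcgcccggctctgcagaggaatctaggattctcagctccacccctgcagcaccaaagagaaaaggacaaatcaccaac

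The printed Avpr1a stretch holds TATAAA, starting 137 bases before the RefSeq start, and CCAAT as its reverse complement, starting 144 bases before it. The printed Oxtr stretch holds none of the 5 motifs. The RefSeq start of Oxtr lies inside the first GENCODE exon, and within that exon the RefSeq window holds AGGTCA starting 98 bases, GGGCGG (as its reverse complement) starting 49 bases and CACGTG starting 43 bases before that start. The last 2 lie side by side, at chr6:112489851-112489880 (minus), in capitals here.
Oxtr, around the E-box: cgggccCCGCCCCACGTGccacactttaaa

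Of 32851 RefSeq windows of the same length, 16.3% held AGGTCA, 7.15% CACGTG, 13.6% TATAAA, 37.4% CCAAT and 35.7% GGGCGG. None of the motifs was found in the windows of both genes. A match is a run of letters and not a binding site, and the absence of one says nothing of a factor.

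Oxtr was highest in unwounded skin and lowest 1 week after either wound. The summed counts of a plate, divided by the TMM-scaled library size and given as CPM, gave Oxtr levels of 65.3 and 47.4 CPM at 0w in replicate 1 and 2. They were 0.850 and 0.703 CPM at 1w pw1, then 45.9 and 23.7 CPM at 8w pw1, and finally 8.05 and 0.701 CPM at 1w pw2. Both plates of 0w and of 8w pw1 lay above all 4 plates taken 1 week after a wound, while 1 plate of 1w pw2 lay above and 1 below both plates of 1w pw1. The means over time were 56.3 ± 12.6, 0.776 ± 0.104, 34.8 ± 15.7 and 4.38 ± 5.20 CPM (SD, n = 2 plates each).

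Avpr1a had the same order between unwounded, healed and freshly wounded skin. Its levels were 74.5 and 75.7 CPM at 0w, 0.0 and 8.44 CPM at 1w pw1, 18.8 and 36.2 CPM at 8w pw1 and 1.26 and 8.31 CPM at 1w pw2. The 0w plates lay close to each other and above both plates of 8w pw1, which lay above all plates taken 1 week after a wound. The 0 at 1w pw1 replicate 1 stands for a level under 0.196 CPM, the value of 3 counts on that plate, which covers counting error only. The means were 75.1 ± 0.868, 4.22 ± 5.97, 27.5 ± 12.3 and 4.78 ± 4.98 CPM (SD, n = 2 plates each) in the same order of time points.

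**Figure D1:**
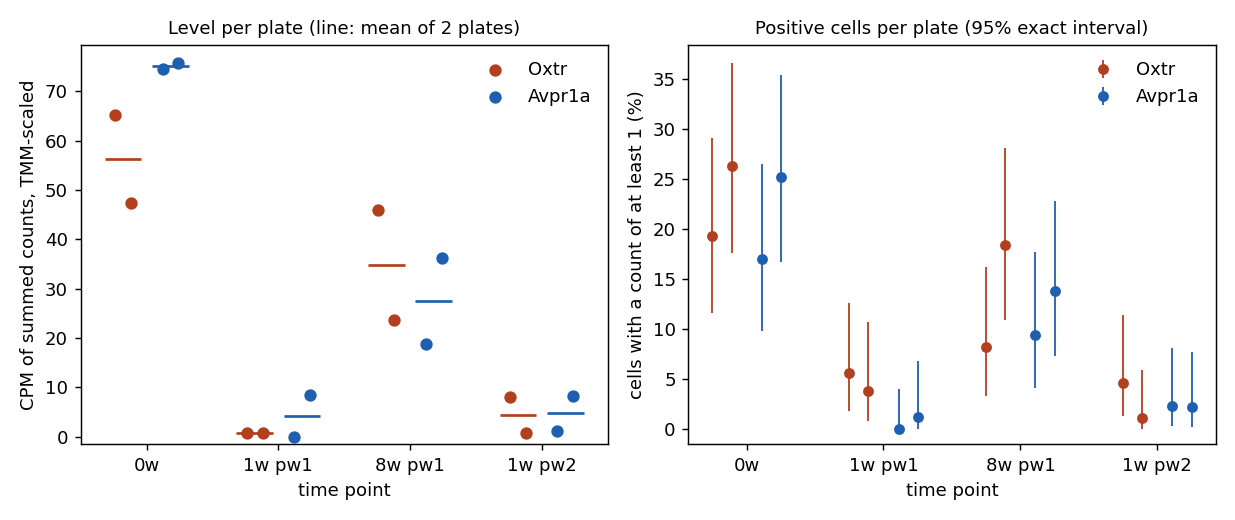
Left, level of Oxtr and Avpr1a per plate in TMM-scaled CPM (points, plates; lines, mean of 2 plates) at each time point; right, percentage of cells of each plate with a count of at least 1, with 95% exact binomial intervals for counting error. For both genes the plates of 0w and 8w pw1 lie above those of 1w pw1 and 1w pw2 in level and in share of cells.

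As fitted log2 fold changes from edgeR, given without a p-value because the genes were chosen for this course, Oxtr at 1w pw1 against 0w was -6.17 (SE 1.11) and Avpr1a -4.15 (SE 1.56). The Avpr1a value was -3.17 without 1w pw1 replicate 1, the plate at 0, then -2.98 with every cell scaled equally and -5.34 with the replicate block. Against 0w the values at 8w pw1 were -0.70 (SE 0.88) for Oxtr and -1.45 (SE 1.39) for Avpr1a, so that each difference between healed and unwounded skin was about as large as its error. With 1 plate left out they ranged from -1.25 to -0.35 and from -2.06 to -1.06, the extremes being without either plate of 8w pw1. At 1w pw2 against 0w they were -3.69 (SE 0.98) and -3.96 (SE 1.54), with -6.33 and -3.20 without 1w pw2 replicate 1 and -2.78 and -5.87 without replicate 2. These contrasts share the 0w plates, and they are side by side only as each comparison's own value.

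Against the healed skin that preceded it, the second wound gave log2 fold changes of -3.00 (SE 0.95) for Oxtr and -2.51 (SE 1.45) for Avpr1a. Without 1w pw2 replicate 1 they were -5.60 and -1.72, without replicate 2 -2.05 and -4.40. With every cell scaled equally they were -2.20 and -3.66. From 1w pw1 to 8w pw1 the values of the main fit were 5.47 (SE 1.08) and 2.70 (SE 1.47), the latter being 1.68 without 1w pw1 replicate 1. In the order 0w, 8w pw1, 1w pw2 and 1w pw1 the neighbours 1w pw2 and 1w pw1 overlapped between plates for both genes, and the neighbours 8w pw1 and 1w pw2 did not. The neighbours 0w and 8w pw1 did not overlap either, but for Oxtr the gap was from 47.4 to 45.9 CPM, less than the spread of either group. Between plates of the same replicate number Oxtr was lower at 8w pw1 in both, from 65.3 to 45.9 and from 47.4 to 23.7 CPM. The labels name no batch shared by that number.

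A few cells carried much of these sums. At 8w pw1 replicate 1 a single cell with 501 counts held 78.6% of all Oxtr counts of the plate, and without it the Oxtr level fell from 45.9 to 10.1 CPM. The highest cell of 8w pw1 replicate 2 held 34.7%, and those of 0w held 36.8% and 26.5%. At 1w pw1 the highest cells held 61.5% and 75.0%, and at 1w pw2 67.0% and 100%. The Oxtr level of 1w pw2 replicate 1 fell from 8.05 to 2.71 CPM without its highest cell. Without the highest cell of each plate, Oxtr was at 42.5 and 36.1 CPM at 0w and at 10.1 and 15.7 CPM at 8w pw1, and the plates of these groups then lay further apart.

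For Avpr1a the highest cell held 26.5% and 23.9% of the counts at 0w and 72.0% and 20.4% at 8w pw1. At 1w pw1 replicate 2 a single cell held all of the Avpr1a counts, 144,, and at 1w pw2 the highest cells held 88.9% and 94.2%. The levels of Avpr1a 1 week after either wound thus rest mainly on 1 cell of each plate that had any.

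Between the genes, levels can be compared only per length. Per kilobase of annotated exon (4.79 kb for Oxtr, 2.67 kb for Avpr1a, not the transcript lengths of the authors' counting), Oxtr was at 13.6 and 9.90 and Avpr1a at 27.9 and 28.3 CPM per kb on the plates of 0w. At 8w pw1 the order differed between plates, with Oxtr at 9.57 and 4.94 and Avpr1a at 7.04 and 13.6 CPM per kb. Scd1 was far above both on the same scale, at 99.2 and 947 CPM per kb at 0w.

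Receptor-positive cells, those with an estimated count of at least 1, were a minority at all time points. Oxtr was counted in 77 of 696 cells (11.1%), of which 64 came from 0w and 8w pw1 and 13 from the time points 1 week after a wound. Avpr1a was counted in 63 cells (9.05%), with 58 and 5 in the same division. Among positive cells the median count was 12 for Oxtr (quartiles 2 and 36) and 25 for Avpr1a (quartiles 7 and 88.5), and 14 Oxtr-positive but only 3 Avpr1a-positive cells had a count of exactly 1.

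By plate, Oxtr-positive cells were 17 of 88 (19.3%, 95% exact interval 11.7 to 29.1) and 24 of 91 (26.4%, 17.7 to 36.7) at 0w. They were 5 of 89 (5.62%, 1.85 to 12.6) and 3 of 79 (3.80%, 0.790 to 10.7) at 1w pw1. At 8w pw1 they were 7 of 85 (8.24%, 3.38 to 16.2) and 16 of 87 (18.4%, 10.9 to 28.1). All 8 positive cells of 1w pw1 had counts of 9 or fewer, while the 0w cells reached 463. At 1w pw2 they were 4 of 86 (4.65%, 1.28 to 11.5) and 1 of 91 (1.10%, 0.0278 to 5.97), and the share of positive cells overlapped between the plates of 1w pw2 and 1w pw1.

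Avpr1a-positive cells were 15 of 88 (17.0%, 9.87 to 26.6) and 23 of 91 (25.3%, 16.7 to 35.5) at 0w, and 8 of 85 (9.41%, 4.15 to 17.7) and 12 of 87 (13.8%, 7.34 to 22.9) at 8w pw1. They were 0 of 89 (exact upper limit 4.06%, or 3.37% for 3 counted cells) and 1 of 79 (1.27%, 0.0320 to 6.85) at 1w pw1. At 1w pw2 each plate had 2 (2.33% and 2.20%). For both genes the shares fell into separate ranges at 0w, 8w pw1 and the time points 1 week after a wound, with a narrow gap between 0w and 8w pw1 for Oxtr, from 19.3% to 18.4%. Without molecular identifiers the reads may be copies of each other, and all such intervals cover counting error only.

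Receptor-positive cells were deeper than the others, with a median of 215311 counts for each gene against 129318 in cells without Oxtr and 127459 in cells without Avpr1a. When each cell was thinned to 50000 counts, Oxtr was counted in 19.5% and 25.4% of the cells of the 0w plates, 2.74% and 2.70% at 1w pw1, 7.25% and 24.0% at 8w pw1 and 4.0% and 1.33% at 1w pw2. Thinning left out 5 to 37 shallower cells of a plate, with 37 from 8w pw1 replicate 2 and 11 and 24 from the 0w plates. At this equal depth Avpr1a was counted in 19.5% and 31.3%, 0.0% and 1.35%, 8.70% and 18.0%, and 2.67% and 2.67% of the cells in the same order. For both genes the thinned plates of 0w stayed above all plates taken 1 week after a wound, and for Oxtr the plates of 0w and 8w pw1 now overlapped.

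The receptors were mostly found in the same cells. Both were counted in 51 cells, which are 66.2% of the Oxtr-positive and 80.95% of the Avpr1a-positive cells, while 26 cells had only Oxtr and 12 only Avpr1a. Cells with only Oxtr had a median Oxtr count of 2, against 23 in cells with both, and cells with only Avpr1a a median Avpr1a count of 6.5, against 26. At 0w the order was the opposite for Oxtr, with a median of 33 in 9 cells with only Oxtr against 18 in 32 cells with both, while for Avpr1a it was 15 in 6 cells against 26. At 8w pw1 the medians were 2 against 28 for Oxtr and 5 against 34 for Avpr1a, so that the pooled order of the Oxtr counts did not hold at each time point. Single cells weigh on these medians, as the only cell of 1w pw2 with Avpr1a alone had 145 counts. At 0w the cells with both were 32, at 8w pw1 15, at 1w pw2 3 and at 1w pw1 1. Over the 696 cells the Pearson correlation of both genes on log2(CPM + 1) was 0.73, which holds the many cells at 0 for both, and within the 62 Scd1-high cells it was 0.54, in both cases with differences in depth and plate included.

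Scd1, the desaturase that makes the monounsaturated fatty acids of sebum, was counted in 441 cells. Its level on the plates was 486 and 4632 CPM at 0w, 336 and 138 CPM at 1w pw1, 552 and 2282 CPM at 8w pw1 and 487 and 260 CPM at 1w pw2. The replicates of 0w thus differed widely in Scd1 while their Avpr1a levels differed by little. Cells were split at 1000 CPM of Scd1, a cut through a continuous range and not a cell type, which left 62 Scd1-high and 634 other cells. Near the cut, 23 cells lay at 1000 to under 2000 CPM (14 Oxtr-positive, 13 Avpr1a-positive) and 29 at 500 to under 1000 CPM (4 and 5).

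Of the 62 Scd1-high cells, 50 were Oxtr-positive (80.6%, 95% exact interval 68.6 to 89.6) and 45 Avpr1a-positive (72.6%, 59.8 to 83.1). Of the 634 other cells, 27 (4.26%, 2.82 to 6.14) and 18 (2.84%, 1.69 to 4.45) were positive. The median depth of the 2 classes was close, 133238 and 132594 counts. The Scd1-high cells held 86.3% of all Oxtr counts and 69.1% of all Avpr1a counts of the data. Seen from the receptors, 64.9% of Oxtr-positive and 71.4% of Avpr1a-positive cells were Scd1-high. For Oxtr this share was 80.5% of 41 cells at 0w, 52.2% of 23 at 8w pw1, 12.5% of 8 at 1w pw1 and 80% of 5 at 1w pw2. For Avpr1a it was 76.3% of 38 cells at 0w, 65% of 20 at 8w pw1, 0 of 1 at 1w pw1 and 75% of 4 at 1w pw2. The pooled shares thus rest mainly on 0w, and at 8w pw1 Oxtr-positive cells lay in near equal numbers on both sides of the cut.

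The shares rose steeply over the range of Scd1. Among the 255 cells with Scd1 at 0, 2.35% had Oxtr and 0.784% Avpr1a, and among 182 cells above 0 and under 100 CPM 1.65% and 1.10%. At 100 to under 300 CPM (117 cells) the shares were 7.69% and 5.13%, and at 300 to under 1000 CPM (80 cells) 11.3% and 10%. From 1000 to under 3000 CPM (33 cells) they were 69.7% and 66.7%, so that the step between neighbouring ranges was largest at the cut.

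Above it, Oxtr was counted in 12 of 12 cells at 3000 to under 10000 CPM and in 15 of 17 cells at 10000 CPM or more, and Avpr1a in 11 and 12 of them. The level in positive cells was not highest where Scd1 was highest. The median Oxtr level of positive cells was 182, 267 and 79.9 CPM in these 3 ranges, and that of Avpr1a 212, 201 and 99.6 CPM, with median depths of 118172, 249195 and 116112 counts per cell. Within the Scd1-high cells the correlation with Scd1 on log2(CPM + 1) was 0.03 for Oxtr and -0.02 for Avpr1a (62 cells), against 0.46 and 0.45 over all 696 cells.

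**Figure D2:**
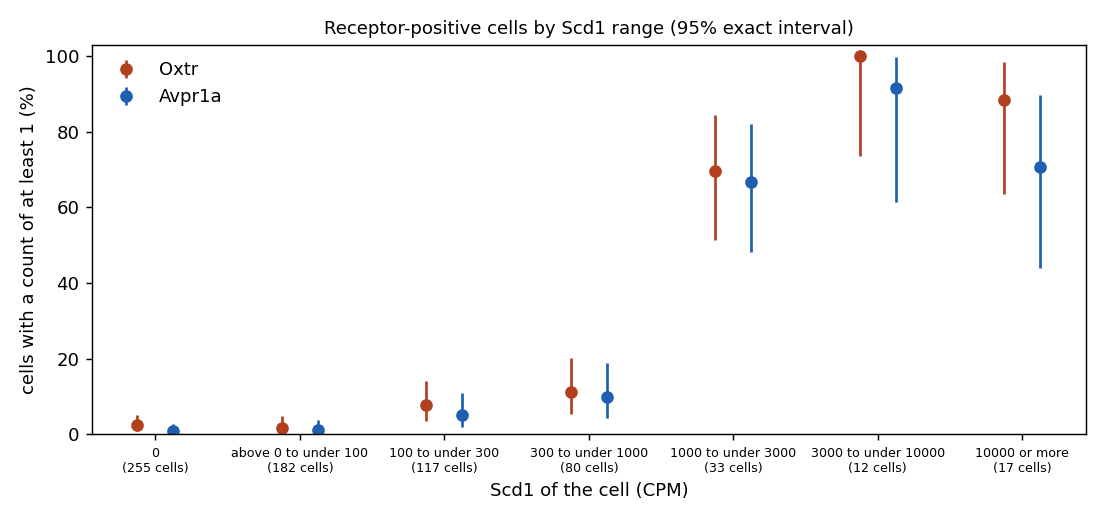
Percentage of cells with a count of at least 1 of Oxtr or Avpr1a (points) in 7 ranges of the cell's own Scd1 level in CPM, with 95% exact binomial intervals for counting error and the number of cells below each range. Shares are at most 11.3% below 1000 CPM and at least 66.7% above it.

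**Figure D3:**
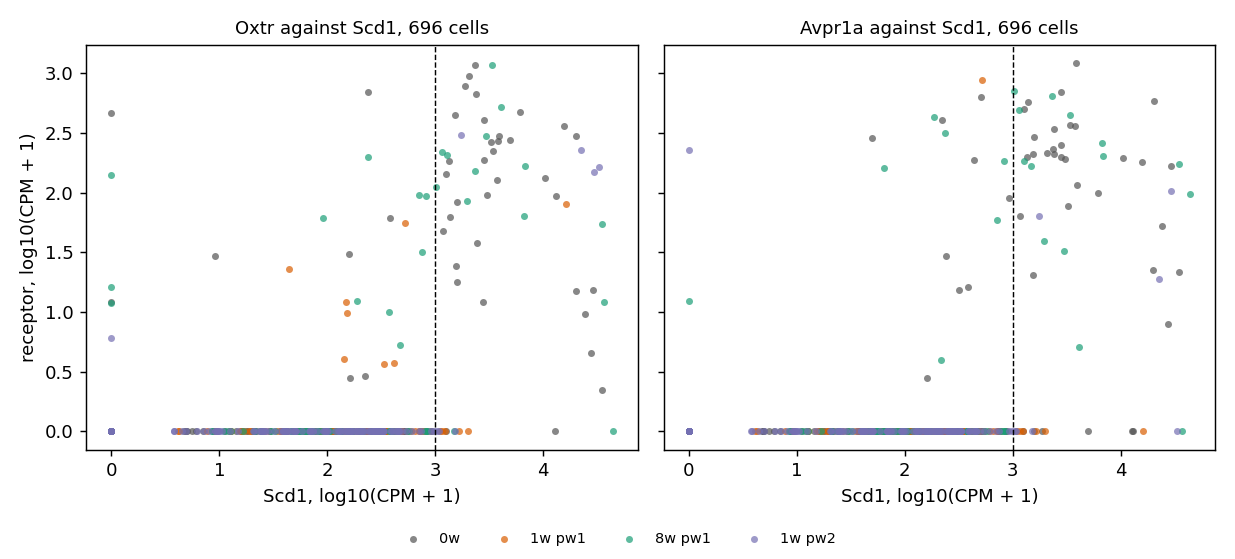
Each of 696 cells by its Scd1 level (horizontal) and its Oxtr (left) or Avpr1a level (right), both as log10(CPM + 1), coloured by time point; the dashed line is the 1000 CPM cut. Most receptor-positive cells of 0w lie right of the line, those of 8w pw1 lie on both sides (12 of 23 Oxtr-positive cells right of it), and points along the bottom are cells without the receptor.

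Scd1-high cells were most frequent at 0w. There were 14 and 21 on the plates of 0w (15.9% and 23.1% of cells), 5 and 1 at 1w pw1 (5.62% and 1.27%), 5 and 9 at 8w pw1 (5.88% and 10.3%) and 4 and 3 at 1w pw2 (4.65% and 3.30%). Both plates of 0w lay above all others, and both plates of 8w pw1 above those taken 1 week after a wound, the narrowest gap being 5.88% against 5.62%. Within these cells, 13 of 14 and 20 of 21 were Oxtr-positive at 0w and 4 of 5 and 8 of 9 at 8w pw1. At 1w pw1 it was 1 of 5 and 0 of 1, and at 1w pw2 3 of 4 and 1 of 3.

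Over the 2 plates together, the Oxtr-positive share of Scd1-high cells was 94.3% at 0w (95% exact interval 80.8 to 99.3), 85.7% at 8w pw1 (57.2 to 98.2), 57.1% at 1w pw2 (18.4 to 90.1) and 16.7% at 1w pw1 (0.421 to 64.1). Avpr1a-positive were 82.9% at 0w (66.3 to 93.4), 92.9% at 8w pw1 (66.1 to 99.8), 42.9% at 1w pw2 (9.90 to 81.6) and 0 of 6 at 1w pw1 (up to 45.9). These intervals are over cells pooled from the plates, cover counting error only and do not compare the time points. Among positive Scd1-high cells the median Oxtr level was 267 and 87.8 CPM on the plates of 0w and 252 and 131 CPM on those of 8w pw1. The median Avpr1a level was 215 and 184 CPM at 0w and 96.7 and 231 CPM at 8w pw1. For both genes the plates of healed and unwounded skin overlapped in the level of positive cells. No test was made of these shares, since the genes were chosen for this pattern and the cells of a plate are not replicates.

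**Figure D4:**
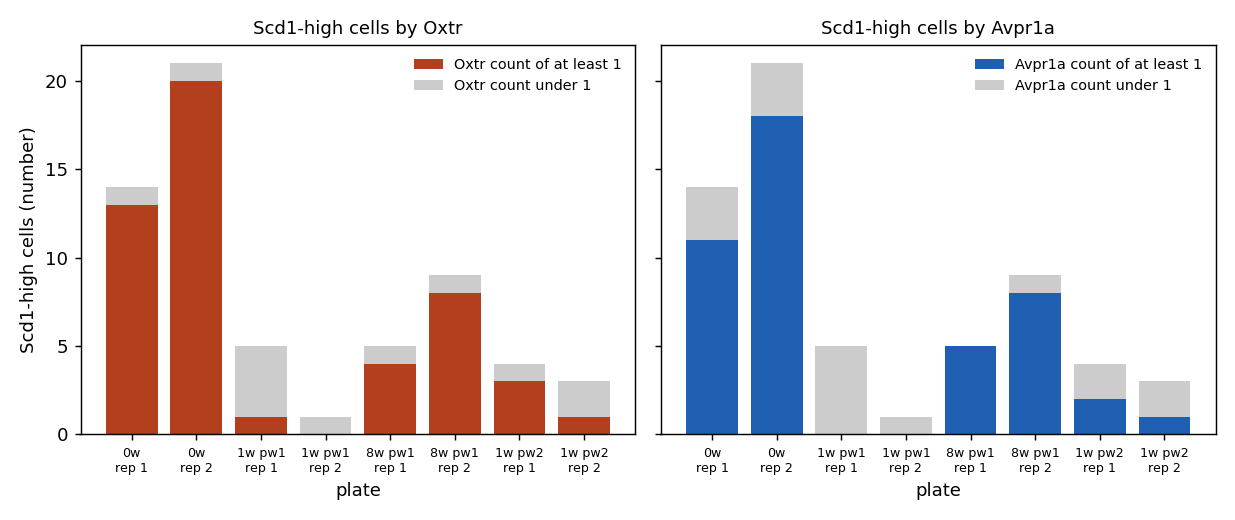
Number of Scd1-high cells (1000 CPM or more) on each plate, stacked by whether Oxtr (left) or Avpr1a (right) had a count of at least 1 (colour) or less (grey). Most of the 35 cells at 0w and the 14 at 8w pw1 are coloured, and at 1w pw1 1 of 6 is for Oxtr and 0 of 6 for Avpr1a.

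The Scd1-high cells also differed in their Scd1 level, with medians of 3035 CPM at 0w, 1446 CPM at 1w pw1, 3171 CPM at 8w pw1 and 1750 CPM at 1w pw2. Within the narrower range of 1000 to under 3000 CPM, Oxtr was counted in 16 of 17 cells at 0w, 6 of 7 at 8w pw1, 1 of 4 at 1w pw2 and 0 of 5 at 1w pw1. Avpr1a was counted in 14, 7, 1 and 0 of the same cells. Pparg, the nuclear receptor that drives sebocyte differentiation, was counted in 15, 6, 1 and 0 of them, and Adh1 in 14, 7, 1 and 0. The cells of this range that lacked the receptors 1 week after a wound thus also lacked Pparg and Adh1. Whether they are sebaceous cells was not tested. Their depth was 6666 to 207728 counts at 1w pw1 and 47244 to 94428 at 1w pw2. At 3000 CPM or more, Oxtr was counted in 17 of 18 cells at 0w and 6 of 7 at 8w pw1. In that range it was counted in 3 of 3 at 1w pw2 and 1 of 1 at 1w pw1. Avpr1a was counted in 15, 6, 2 and 0 of these cells, and Pparg in 18, 7, 3 and 1.

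The few receptor-positive cells of the wounded time points can be given one by one. At 1w pw1 replicate 1, a cell with Scd1 at 16276 CPM had 8 Oxtr, 0 Avpr1a and 16 Pparg counts, and the other 4 Oxtr-positive cells had 1 or 2 Oxtr counts, 0 Pparg counts and Scd1 under 1000 CPM. At 1w pw1 replicate 2, a cell with Scd1 at 524 CPM had 9 Oxtr, 144 Avpr1a and 17 Pparg counts, and the other 2 had 1 and 2 Oxtr counts. A receptor count above 2 was thus found in 2 of the 168 cells of 1w pw1, each of which also had Pparg counts.

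At 1w pw2 replicate 1, 3 cells with Scd1 at 1750, 22589 and 33192 CPM had 77, 25 and 12 Oxtr counts, 16, 2 and 0 Avpr1a counts and 1, 3 and 11 Pparg counts, and the other Oxtr-positive cell had 1 Oxtr count at Scd1 of 0. At 1w pw2 replicate 2, a cell with Scd1 at 29472 CPM had 13 Oxtr, 9 Avpr1a and 4 Pparg counts. A further cell of that plate had 145 Avpr1a counts with 0 for Oxtr, Scd1 and Pparg, and it held 94.2% of the Avpr1a counts of its plate. The Scd1-high cells of 1w pw2 that were negative for both receptors numbered 3, with Scd1 between 1044 and 1524 CPM and 0 Pparg counts.

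Receptor-positive cells below the cut lay both with and without Pparg. Of the 37 cells with either receptor and Scd1 under 1000 CPM, 15 had Pparg, which in all was counted in 74 cells. Of these 74, 57 had Oxtr, 57 had Avpr1a and 65 had either, while 51 were Scd1-high. By time point, either receptor was counted in 40 of 45 Pparg-positive cells at 0w and 19 of 20 at 8w pw1. It was 2 of 3 at 1w pw1 and 4 of 6 at 1w pw2. Some cells had high receptor counts without Pparg, such as a cell of 0w replicate 1 with 36 Oxtr counts at Scd1 of 0 and another with 184 Oxtr counts at Scd1 of 239 CPM.

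Markers of the sebaceous gland were checked in receptor-positive cells against the 607 cells negative for both. The receptors were chosen for their presence in Scd1-high cells. The lists were chosen with earlier results known, some genes from the study's own cluster markers, so the comparison is a description and no independent check. Of 16 genes of lipid synthesis and storage, 15 were counted more often in Oxtr-positive and 15 in Avpr1a-positive cells, beside 9307 (70.7%) and 9415 (71.5%) of the 13167 genes counted in at least 20 cells, a high base beside which the depth of positive cells was greater and its part was not tested. The median gene of the list was counted in 70.8% of Oxtr-positive, 69.0% of Avpr1a-positive and 23.4% of negative cells, against 31.2%, 31.7% and 25.5% for the median of all those genes. Within 0w, 15 of 16 were more frequent in Oxtr-positive and 15 in Avpr1a-positive than in negative cells (74.4% and 74.9% of all genes), and within 8w pw1 14 and 15 (63.6% and 63.8%). At these time points most receptor-positive cells had Pparg. It was counted in 82.9% of Oxtr-positive and 97.4% of Avpr1a-positive cells at 0w, and in 73.9% and 80.0% at 8w pw1. Of the 8 Oxtr-positive cells of 1w pw1, 2 had Pparg. The comparison within time points was added after seeing the data, and there too positive cells were deeper, with medians of 259121 against 109786 counts at 0w and 169118 against 93875 at 8w pw1 for Oxtr.

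The 4 lipid genes with the highest correlation with Oxtr were Elovl6, a fatty acid elongase (r = 0.51, in 72.7% of Oxtr-positive and 18.0% of negative cells), Soat1, which esterifies cholesterol (0.46, 53.2% and 9.23%), Far2, which makes fatty alcohols for wax (0.43, 41.6% and 4.78%), and Acsbg1, an acyl-CoA synthetase (0.41, 90.9% and 45.5%). Of genes of late sebocytes, Elovl3 was counted in 20.8% and Awat2, a wax synthase, in 9.09% of Oxtr-positive cells. Both are among the 15 of 16 lipid genes counted more often in Oxtr-positive than in negative cells. Scd3, a relative of Scd1, was the gene of the list counted less often, in 1.30% against 4.12%, and reads shared with its close relatives could be split between them.

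Of the 10 genes of early or basal sebaceous cells, 9 were counted more often in positive cells of either receptor, and the exception was Prdm1, counted in 3.90% of Oxtr-positive, 0.0% of Avpr1a-positive and 12.03% of negative cells. Pparg was counted in 74.0% of Oxtr-positive, 90.5% of Avpr1a-positive and 1.48% of negative cells (r with Oxtr 0.71). Adh1, an alcohol dehydrogenase that oxidises retinol, was counted in 79.2%, 95.2% and 7.41% (r = 0.70). Mc5r, the melanocortin receptor of sebocytes, was counted in 63.6%, 74.6% and 20.9% (r = 0.48), and Ermp1, an endoplasmic reticulum peptidase, in 92.2%, 98.4% and 48.8% (r = 0.46).

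Genes of differentiated and wounded epidermis were counted less often in positive cells. The 5 genes of differentiated epidermis and the 5 keratin and alarmin genes of wounded epidermis were all counted less often in positive cells of either receptor, for example Krtdap in 24.7% of Oxtr-positive, 7.94% of Avpr1a-positive and 85.3% of negative cells and Krt6a, a keratin of wounded epidermis, in 16.9%, 6.35% and 52.7%. The time points were unevenly represented, since 160 and 171 of the 607 negative cells came from 1w pw1 and 1w pw2. Within 0w the 5 genes of differentiated epidermis were again all less frequent in positive cells of either receptor (Krtdap in 12.2%, 7.89% and 74.2%), but of the wound genes 1 of 5 was more frequent, and their median share was 2.44% in Oxtr-positive and 2.27% in negative cells. Within 8w pw1 0 of the 5 genes of each list were more frequent in Oxtr-positive and 1 of each in Avpr1a-positive cells. Krt14, a keratin of basal cells of epidermis and gland, was counted in 97.4% of Oxtr-positive, all Avpr1a-positive and 87.8% of negative cells. Oxtr is known from smooth muscle and Avpr1a from vessels, and the smooth muscle genes Acta2 and Tagln were counted in 3.90% and 2.60% of Oxtr-positive cells (8.57% and 2.64% of negative cells). Tagln was counted in 3.17% of Avpr1a-positive cells, and within 8w pw1 both genes were more frequent in Oxtr-positive than in negative cells, with a median of 4.35% against 2.08%.

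Genes of cells outside the epithelium were counted in few positive cells. Of 5 fibroblast genes, Col1a1 and Dcn were counted in 0.0%, Col1a2 in 1.30% and Lum in 7.79% of Oxtr-positive cells (8.73% of negative cells), while Pdgfra was counted more often, in 5.19% against 0.659%. Of 3 immune genes Ptprc was counted in 5.19% of Oxtr-positive and 3.79% of negative cells, Cd74 in 1.30% and 0.824% and Cd3e in 0.0% and 0.988%. Of 3 melanocyte genes Dct was counted in 7.79% and 9.06%, Pmel in 7.79% and 5.60% and Tyr in 0.0% and 3.79%.

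The endothelial gene Kdr was counted in 1.30% of Oxtr-positive cells, more often than in negative cells, but not more often within 0w. Pecam1 was counted in 687 of all cells and so marks no cell type here. The median summed level of the smooth muscle, fibroblast, immune and melanocyte lists in Oxtr-positive cells was 0.0 CPM each, and the highest summed levels in any such cell were 19.1, 133, 10.1 and 143 CPM. The other genes of these lists were not analysed here.

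**Figure D5:**
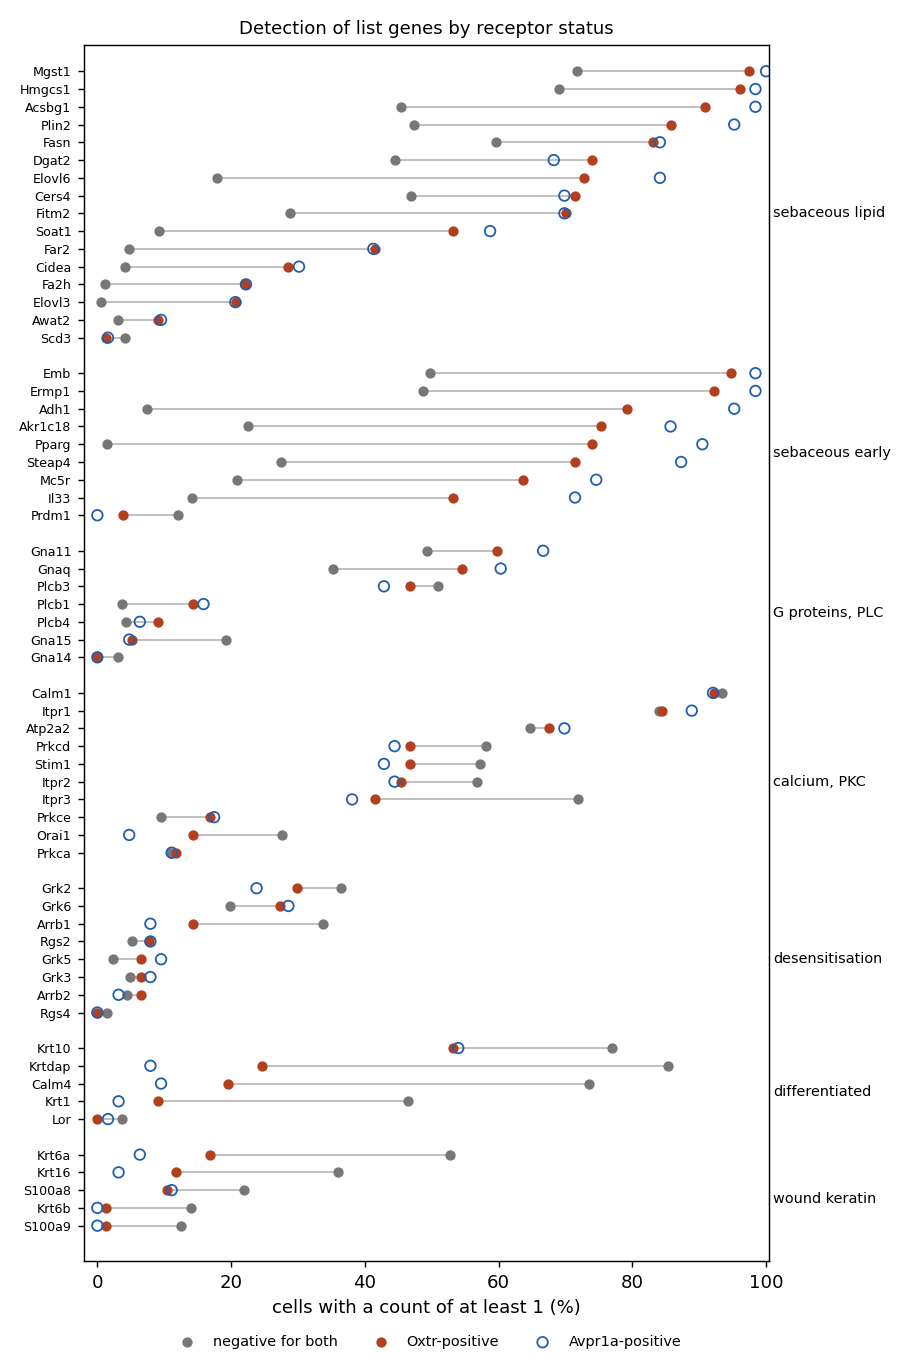
Percentage of cells with a count of at least 1 for genes of 7 lists in cells negative for both receptors (grey), Oxtr-positive cells (red) and Avpr1a-positive cells (open blue circles); grey lines join the negative and Oxtr-positive values. Sebaceous genes except Scd3 and Prdm1 lie to the right in positive cells, with Pparg at 74.0% and 90.5% against 1.48%, genes of differentiated and wounded epidermis lie to the left, and signalling genes lie on both sides.

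Whether the sebaceous genes changed between time points was tested with edgeR on the plate sums, with Benjamini-Hochberg adjustment over all 13853 genes tested. At 1w pw1 against 0w, 1 of the 26 sebaceous genes was called lower at an adjusted p below 0.05 and a fold above 2, where 0.123% of all genes were called lower, 0.404% higher and 0.527% in either direction. This was Adh1, at 73.6 and 222 CPM at 0w and 3.53 and 6.44 CPM at 1w pw1 (log2 fold change -4.89, SE 0.84, edgeR adjusted p = 0.0380), which is also among the genes most like both receptors. Its call was lost without any 1 of the 4 plates of the contrast. Of the 26 genes, 24 had a log2 fold change below 0, 15 had an unadjusted p below 0.05 (11.5% of all genes) and the median was -2.07, against -0.04 over all genes, while DESeq2 called 11 (5.32% of all genes) and edgeR with the replicate number as a block called 2 (1.7% of all genes).

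In the other contrasts edgeR called 0 of the 26 genes, and with the replicate block 1 gene at 1w pw2 relative to 0w (0.693% of all genes) and 1 at 8w pw1 relative to 1w pw1 (0.794%). The block called 0 at 8w pw1 relative to 0w (0.0217%) and 0 at 1w pw2 relative to 8w pw1 (0.0577%). The share of all genes called was 0.0% between 8w pw1 and 0w. At 1w pw2 it was 0.267% relative to 0w (0.238% higher, 0.0289% lower) and 0.00722% relative to 8w pw1. For 8w pw1 relative to 1w pw1 it was 0.115% (0.0433% higher, 0.0722% lower). For 8w pw1 and 1w pw2 relative to 0w, 1 and 9 of the 26 genes had an unadjusted p below 0.05 (6.47% and 12.6% of all genes) and DESeq2 called 0 and 7 (1.24% and 5.17%), with median log2 fold changes of -0.54 and -1.54 (0.07 and 0.05 over all genes). For 8w pw1 relative to 1w pw1, 12 genes had such a p (11.1% of all genes) and DESeq2 called 5 (4.21%), with a median of 1.46 (0.09 over all genes). For 1w pw2 relative to 8w pw1 these were 4 and 3 (7.94% and 2.11%), with a median of -1.14 (0.01 over all genes). Pparg, at 16.9 and 71.9 CPM at 0w, was at 1.05 and 3.98 CPM at 1w pw1, 1.66 and 19.4 CPM at 8w pw1 and 1.19 and 0.216 CPM at 1w pw2, and was not called in any contrast with edgeR.

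Among genes that process the ligands or pass on the signal, the highest correlation with Oxtr over cells was 0.26. Of Pam, the enzyme that amidates peptide hormones, and Lnpep, the oxytocinase, Pam was counted in 76.6% of Oxtr-positive and 71.2% of negative cells and Lnpep in 77.9% and 75.3%. Of the list of 6, Oxt, Avp, Avpr1b and Avpr2 are not among the genes of the table and were not analysed here. The correlation with Oxtr over all cells was 0.01 for Pam and -0.02 for Lnpep.

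Among 7 genes of G proteins and phospholipase C beta in the table, 4 (57.1%) were counted more often in Oxtr-positive than in negative cells, under the 70.7% of all genes. Gnaq and Gna11, which encode the G protein subunits the receptors couple to, were counted in 54.5% and 59.7% of Oxtr-positive cells and in 35.3% and 49.3% of negative cells. Plcb1 was counted in 14.3% and 3.62% (r = 0.26) and Plcb4 in 9.09% and 4.28%. Gna14 and Gna15, of the same class, were counted less often, in 0.0% and 5.19% of Oxtr-positive against 3.13% and 19.3% of negative cells, as was Plcb3, in 46.8% and 50.9%. Within 0w, 5 of the 7 genes (71.4%, against 74.4% of all genes) were more frequent in Oxtr-positive cells. Within 8w pw1 it was 4 (57.1%, against 63.6%).

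Of 10 genes of calcium release and protein kinase C, 4 (40%) were counted more often in Oxtr-positive cells, also under the share of all genes. Atp2a2, the calcium pump of the endoplasmic reticulum, was counted in 67.5% and 64.7%, Prkce in 16.9% and 9.56%, Prkca in 11.7% and 11.04% and Itpr1 in 84.4% and 84.0%. Itpr3, another channel for calcium release, was counted in 41.6% of Oxtr-positive and 71.8% of negative cells and Orai1, a calcium entry channel, in 14.3% and 27.7%. The highest r with Oxtr in this list was 0.02, for Prkce. Within 0w, 4 of the 10 genes (40%, against 74.4% of all genes) were more frequent in Oxtr-positive cells. Within 8w pw1 it was 0 (against 63.6%).

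Of 8 genes of receptor desensitisation, 5 (62.5%, against 70.7% of all genes) were counted more often in Oxtr-positive cells, among them Grk5 in 6.49% and 2.31%, Grk6 in 27.3% and 19.8%, Rgs2 in 7.79% and 5.11% and Arrb2 in 6.49% and 4.45%. Arrb1, the other beta-arrestin, was counted in 14.3% of Oxtr-positive and 33.8% of negative cells, and Rgs4 in 0.0% and 1.48%. The highest r with Oxtr in this list was 0.08, for Grk5. Within 0w, 4 of the 8 genes (50%, against 74.4% of all genes) were more frequent in Oxtr-positive cells. Within 8w pw1 it was 6 (75%, against 63.6%), so that the order against all genes turned there.

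Over time, edgeR called 0 of the 27 tested genes of these 4 lists (of 32) in any of the 5 contrasts. Its calls among all genes ranged from 0.0% (8w pw1 relative to 0w) to 0.527% (1w pw1 relative to 0w). The replicate block gave 1 called gene of these lists for 8w pw1 relative to 1w pw1, beside 0.794% of all genes. Relative to 0w, an unadjusted p below 0.05 was found for 3 genes at 1w pw1, for 5 genes at 8w pw1 and for 2 genes at 1w pw2, beside 11.5%, 6.47% and 12.6% of all genes. DESeq2 called 0, 2 and 0, beside 5.32%, 1.24% and 5.17% of all genes. For 8w pw1 relative to 1w pw1 the numbers were 4 and 3 (11.1% and 4.21% of all genes), and for 1w pw2 relative to 8w pw1 2 and 1 (7.94% and 2.11%). The median log2 fold changes of the list were 0.06, 0.41, 0.06, 0.31 and -0.0045 in this order. At 1w pw1 relative to 0w, 12 genes of the list lay below and 15 above 0.

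Receptors for other hormones were set beside them. Of 18 such genes in the table (of 19 listed), 13 were counted more often in Oxtr-positive and 14 in Avpr1a-positive cells than in negative cells, close to the 70.7% and 71.5% of all genes. Besides Pparg and Mc5r these were led by Esr1, the estrogen receptor alpha, in 76.6% of Oxtr-positive, 87.3% of Avpr1a-positive and 29.8% of negative cells (r with Oxtr 0.42), and Prlr, the prolactin receptor, in 96.1%, 96.8% and 68.2% (r = 0.25). Vdr, the vitamin D receptor, was counted less often, in 66.2%, 69.8% and 76.6%.

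All 12 cell cycle genes of the list were counted more often in positive cells of either receptor than in negative cells, beside 70.7% and 71.5% of all genes. Within 0w it was 12 and 12 of 12 (74.4% and 74.9% of all genes) and within 8w pw1 11 and 12 (63.6% and 63.8%). Mki67, a gene of cycling cells, was counted in 48.1% of Oxtr-positive, 60.3% of Avpr1a-positive and 17.0% of negative cells (r with Oxtr 0.26). Tyms, which makes thymidylate, was counted in 75.3%, 82.5% and 35.4% (r = 0.30), Stmn1 in 70.1%, 80.95% and 40.03% and Cenpf in 24.7%, 28.6% and 8.57%. The positive cells were also deeper, and the part of depth in these shares was not tested.

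The genes whose pattern over the 696 cells was most like that of Oxtr, by Pearson r on log2(CPM + 1) over 12672 candidate genes, were Lama4, a laminin chain of basement membranes (0.75), Avpr1a (0.73), Pparg (0.71), Adh1 (0.70), Gsta3, a glutathione transferase (0.64), Tgfbr3, a co-receptor for TGF-beta (0.64), Prelp, a matrix proteoglycan (0.61), Igfbp2, which binds insulin-like growth factors (0.59), Ripply3, a transcriptional corepressor (0.55), and Ncoa7 (0.55). The next gene, Bche, had an r of 0.55 as well. For Avpr1a they were Pparg (0.77), Adh1 (0.73), Oxtr (0.73), Lama4 (0.71), Gsta3 (0.70), Tgfbr3 (0.68), Bche, which encodes butyrylcholinesterase (0.65), Prelp (0.65), Igfbp2 (0.60) and Tgm2, a transglutaminase (0.57). The lists share 7 genes. When r was taken within plates and averaged, 6 of the 10 genes named for Oxtr and 8 of the 10 for Avpr1a were again among the 10 highest. All of these cells share plates, depth and the many zeros of sparse counts, so that the values are a description.

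Lama4 had the highest Pearson r with Oxtr, while by Spearman's rho Pparg (0.74) lay above it (0.72). It was counted in 68 cells, of which 77.9% had Oxtr, and in 68.8% of Oxtr-positive against 1.48% of negative cells. Its level per plate was 19.3 and 29.6 CPM at 0w, 0.131 and 0.176 CPM at 1w pw1, 21.96 and 17.9 CPM at 8w pw1 and 2.59 and 0.540 CPM at 1w pw2, so that its 0w and 8w pw1 plates, too, lay above the other 4. Tgm2, Prelp and Bche were counted in 29, 41 and 41 cells, and 87.8% of the cells with Prelp were Oxtr-positive and 85.4% of the cells with Bche Avpr1a-positive.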

How the data were processed

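The authors deposited estimated counts per gene and cell, which their processing notes credit to Salmon 0.13.1 with GRCm38 (mm10). The summing of transcripts to genes is not given in the sources used here. Expected counts were summed over the cells of each plate and rounded. Changes were tested with edgeR 4.0.16 (R 4.3.3; TMM, filterByExpr, quasi-likelihood, time point as the only term, 8 plates in 1 fit; called at an adjusted p below 0.05 and a fold above 2), with DESeq2 1.42.0 as an alternative. The fit had a biological coefficient of variation of 0.61 and 4 residual degrees of freedom, and was tested on simulated data. The simulation drew counts from the fitted spread and changed only well-counted genes by large folds. It does not show how genes carried by few cells behave. The labels do not say that plates came from separate animals, so p-values measure the spread between plates. A cell was positive at a count of at least 1 and Scd1-high at 1000 CPM. Thinning drew 50000 counts per cell. Likeness was Pearson r over genes counted in at least 20 cells, the 10 highest named, without predicted models. From each list the genes called and the 4 most like Oxtr were named, with others singled out after their values were seen. The members and lists were chosen with earlier results of these data known, and some list genes came from the study's own cluster markers. Other alternatives changed the scaling, the filter, the weight of cells, the positive count, the Scd1 cut, the replicate block and each plate left out. Some genes of the lists are counted but not reported here by name.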

Additional observations from a re-analysis of the deposited data

How the results depend on the processing

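Over the alternatives, the sign of the Oxtr and Avpr1a fold changes was that of the report in 128 of 128 values. With 1w pw1 replicate 2 left out, Avpr1a at 1w pw1 was at 0 counts and has no fold change. With every cell scaled equally, the log2 fold change of Oxtr at 8w pw1 against 1w pw1 was 4.02, and at 8w pw1 against 0w it was -1.19 for Oxtr and -0.85 for Avpr1a. With 1 plate left out, the log2 fold change of Oxtr ranged from -6.33 to -2.78 for 1w pw2 against 0w and from -5.60 to -2.05 for 1w pw2 against 8w pw1, the extremes being without 1w pw2 replicate 1 and replicate 2. Those of Avpr1a ranged from -5.87 to -3.20 and from -4.40 to -1.72, the extremes being without replicate 2 and replicate 1. For Avpr1a they ranged from -4.19 to -3.17 at 1w pw1 against 0w and from 1.68 to 3.09 at 8w pw1 against 1w pw1. Cells with both receptors numbered 32 to 51, with 32 without 0w replicate 2.

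Relative to unwounded skin, DESeq2 called 11 sebaceous genes at 1w pw1 (5.32% of all genes) but 7 at 1w pw2 (5.17%), with 2 genes of the receptor pathway at 8w pw1 (1.24%). It called 5 and 3 genes of these lists for 8w pw1 relative to 1w pw1 (4.21%), and 3 and 1 for 1w pw2 relative to 8w pw1 (2.11%). With 1 plate left out, edgeR called 0 to 1 sebaceous genes at 1w pw1 against 0w. The cause was not tested. A positive count of at least 5 gave Oxtr-positive shares of 16.8% at 0w, 1.19% at 1w pw1 and 8.72% at 8w pw1, and an Avpr1a-positive share of 1.69% at 1w pw2. A count of at least 10 gave 14.5%, 0.0% and 6.40% for Oxtr at 0w, 1w pw1 and 8w pw1, and 14.5%, 6.98% and 1.13% for Avpr1a at 0w, 8w pw1 and 1w pw2. Thinned cells gave 2.72% for Oxtr at 1w pw1 and 2.67% for Avpr1a at 1w pw2. With the Scd1 cut at 300 CPM, 41.5% of Scd1-high cells were Oxtr-positive and 37.3% Avpr1a-positive, and with the cut at 3000 CPM, 35.1% of Oxtr-positive and 36.5% of Avpr1a-positive cells were Scd1-high.

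Plates with the same replicate number deviated together only weakly (r from 0.121 to 0.213 across genes, 6 pairs of time points), each contrast has 2 pairs, and the labels name no shared batch. With the replicate block, edgeR called 2 sebaceous genes at 1w pw1 (1.7% of all genes) but 1 at 1w pw2 (0.693%) relative to unwounded skin. For 8w pw1 relative to 1w pw1 it called 1 sebaceous gene and 1 gene of the receptor pathway (0.794% of all genes). The block gave log2 fold changes at 1w pw1 against 0w of -6.18 for Oxtr and -5.34 for Avpr1a. Counts in few cells of 2 plates a group limit what these data can resolve.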

Other observations

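Of 8 bulge markers, 3 were counted more often in Oxtr-positive and 5 in Avpr1a-positive than in negative cells, and of 3 junctional zone markers 2 and 3, beside 70.7% and 71.5% of all genes. The markers named here were chosen after their values were seen. Thbs1, which encodes thrombospondin 1, was counted in 57.1% of Oxtr-positive, 74.6% of Avpr1a-positive and 20.1% of negative cells. Lgr6, a receptor of stem cells of the upper follicle, was counted in 29.9%, 42.9% and 12.2%, and Lrig1, the gene that drives the labelling Cre, in 55.8%, 63.5% and 42.8%. Lhx2, a transcription factor of bulge stem cells, was counted less often, in 7.79%, 1.59% and 20.9%, as was Postn, in 22.1%, 17.5% and 43.3%. Of the duct and infundibulum genes only Krt79 was counted more often in positive cells, in 79.2%, 82.5% and 48.4%, while Gata6, a transcription factor of the sebaceous duct, was counted in 18.2%, 11.1% and 36.9%. Of 4 basal epidermis genes (Krt5, Krt14, Col17a1 and Itga6), 4 were counted more often in positive cells of either receptor over all time points but 3 within 0w, where 74.4% and 74.9% of all genes were.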
